A study of Homo sapiens with 60 samples.

Results

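The 9 genes described here encode the enzymes that bring galactose into central metabolism (GALM, GALK1, GALT and PGM1), the enzyme that makes UDP-glucose (UGP2), a kinase related to galactokinase (GALK2), and steps that take up and trap hexoses (SLC2A1, SLC2A3 and HK2). They were chosen by symbol, with earlier results of these data known, and they are 9 of 60675 genes in the deposited table. All 9 were among the 17919 genes tested. RNA was sequenced from SW1783, a human astrocytoma cell line kept in L-15 medium, which supplies galactose in place of glucose. Every group was collected after 24 h. The vehicle group received DMSO, at 0.1% per the sample labels but at 2% per the series text. The labels give no DMSO for the drug and extract libraries, so whether these held the same solvent is not known. Thioridazine, an antipsychotic phenothiazine, and the PI3-kinase inhibitors wortmannin and LY294002 were each given at 10 µM. The water extracts are called poria (Poria Cocos), atractylodes (Atractylodis Rhizoma), licorice (Glycyrrhizae Radix), ginseng (Panax Ginseng), angelica (Angelicae Gigantis Radix) and peony (Paeoniae Radix). The labels give each extract at 500, 100 and 20 µg/mL, called high, medium and low, while the series text allows lower doses for toxic extracts. The 60 libraries formed 22 groups of 3 libraries each, except for 6 angelica and peony groups of 2, whose replicate 3 was not analysed here.

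Galactose enters cells through the facilitative hexose transporters, of which GLUT1 (SLC2A1) and GLUT3 (SLC2A3) are widely expressed. In the Leloir pathway GALM turns the sugar into its alpha form, GALK1 phosphorylates it, and GALT exchanges it against the glucose of UDP-glucose, which releases glucose 1-phosphate. PGM1 carries glucose 1-phosphate to glucose 6-phosphate, where glycolysis begins. UGP2 makes UDP-glucose, the sugar donor that GALT needs and that also feeds glycogen and glycosylation. HK2, an inducible hexokinase, gives glucose 6-phosphate directly from glucose, and GALK2 acts mainly on N-acetylgalactosamine.

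Library totals lay between 19.45 and 30.87 M counts (median 26.05 M). The labels do not say whether replicates were separate cultures, so the spread behind each p-value is that between these libraries and may be technical. In their sample codes the vehicle libraries form a set of their own, while the drugs and 3 pairs of extracts form 4 others. In a comparison with vehicle the treatment, the set and any difference in solvent therefore cannot be told apart. Comparisons within a pair of extracts, between doses or between drugs lie inside a set. In bulk samples fewer cells and less RNA per cell cannot be told apart. Of 9 astroglial markers 4 averaged at least 1 CPM (counts scaled to a common library size), VIM, SOX9, SLC1A3 and NES, whereas GFAP, AQP4, S100B, ALDH1L1 and FABP7 were near 0. The markers' summed level, most of it VIM (mean 5318 CPM), was 5959 to 6262 CPM in vehicle, 4343 to 4495 CPM under thioridazine and 4453 to 5129 CPM under high peony, and its part in the results was not tested. Of the 4 markers thioridazine raised 2 and lowered 2, high peony 1 and 2 (0 and 2 without its replicate 1), high licorice 0 and 3 (median -0.39) and medium licorice 0 and 4 (median -0.30). By the test described below, 48.4%, 20.7%, 30.9% and 25.2% of all genes changed in these comparisons, in the same order. Replicate 1 of high peony stood apart, with 400 genes at 1 CPM or more that were under 0.5 CPM in every other library, against at most 1 such gene elsewhere, and with GFAP at 1.25 CPM. Member calls that involve high peony are therefore also given without it.

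The promoters of 3 members are shown because they hold short motifs bound by factors that read hexose and oxygen supply. CACGTG is the E-box bound by bHLH factors including the hexose sensor MondoA, and ACGTG is the core of the element bound by hypoxia-inducible factors. The sequences are from RefSeq on GRCh38.p14, on the plus strand, with the motif in capitals. They lie upstream of the second annotated start of HK2 (chr2:74834920-74835169), upstream of the first start of UGP2 (chr2:63840719-63840939, where the capitals are ACGTG read on the other strand), and upstream of the first start of GALT (chr9:34646576-34646605). The GALT motif begins at position 34646588, 1 base before a GALT exon that GENCODE 29 starts at 34646589, and its other bases lie in that exon.
HK2: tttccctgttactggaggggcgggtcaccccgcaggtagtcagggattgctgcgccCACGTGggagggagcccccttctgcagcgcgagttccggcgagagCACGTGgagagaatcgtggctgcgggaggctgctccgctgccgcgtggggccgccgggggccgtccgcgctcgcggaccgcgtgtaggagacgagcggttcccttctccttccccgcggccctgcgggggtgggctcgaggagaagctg
UGP2: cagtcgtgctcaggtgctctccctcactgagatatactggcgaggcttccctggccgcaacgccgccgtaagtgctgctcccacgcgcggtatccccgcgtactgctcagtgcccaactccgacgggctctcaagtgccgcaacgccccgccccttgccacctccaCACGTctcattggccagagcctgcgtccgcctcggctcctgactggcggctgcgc
GALT: cagtcagtcagtCACGTGctggcggctggc
The HK2 stretch holds CACGTG in 2 places, and that of GALT holds it once. On either strand CACGTG was found in 7.26% of 35116 windows of 250 bases before to 50 after a start, and ACGTG, which every CACGTG contains, in 21.4%. Of 13 windows of 8 members, 3 held CACGTG (GALK2, GALT and HK2) and 6 held ACGTG. A pair of CACGTG motifs spaced as in the carbohydrate-response element was in 0.0057% of all windows and in 0 of the 13. The search took exact letters and also found 0 pairs in the windows of TXNIP, a gene induced through MondoA, and of its relative ARRDC4. It therefore cannot decide whether the members hold such an element. SLC2A3 was the member with no window in the table. A match describes these letters and is not evidence of binding.

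Levels were compared between genes as CPM per kilobase of annotated exon, averaged over the 22 groups. SLC2A1 was the most abundant at 41.1, followed by PGM1 at 21.3, UGP2 at 19.7 and HK2 at 9.03. GALK1 at 5.59 and SLC2A3 at 5.46 came next, and the 3 lowest were GALT at 2.91, GALK2 at 2.80 and GALM at 1.61. All 9 are protein-coding genes, placed by GENCODE 29 on GRCh38. SLC2A1 (chr1:42925375-42959176) and PGM1 (chr1:63593276-63660245) lie on chromosome 1, and GALM (chr2:38665910-38741237), UGP2 (chr2:63840940-63891562) and HK2 (chr2:74833981-74893359) on chromosome 2. GALT is at chr9:34638133-34651035, SLC2A3 at chr12:7919230-7936275, GALK2 at chr15:49155656-49367869 and GALK1 at chr17:75751594-75765711. In the vehicle libraries PGM1 (22.1 ± 0.954, SD, n = 3) was close to UGP2 (20.8 ± 0.356), with each PGM1 library above each UGP2 library, while the libraries of GALK2 (2.46 ± 0.159) and GALT (2.25 ± 0.203) overlapped. GALT and GALM of the Leloir pathway were thus among the 3 lowest on this scale, GALK1 lay close to SLC2A3, and SLC2A1 was the highest. The gene models of several members overlap others, and no source used here says whether counting was stranded, so shared reads cannot be told apart. GALK1 overlaps ITGB4 (21.8 CPM in vehicle), PGM1 overlaps ITGB3BP (26.8 CPM) and GALT overlaps IL11RA (10.7 CPM), the last on the same strand. GALK2 shares only positions 49155656 to 49155661 with COPS2 (113 CPM), and 49326962 to 49367869 with FAM227B (2.2 CPM). SLC2A14, the near-identical copy of SLC2A3, had a mean of 0.0279 CPM.

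A gene is called changed below where the adjusted p of edgeR's quasi-likelihood test was under 0.05, and log2 differences are given ± SE. Against vehicle 59 of 189 tests of a member were called, 35 higher and 24 lower. The 3 drugs gave 20 of 27, the high doses 23 of 54, the medium doses 8 of 54 and the low doses 8 of 54. Of all genes, 31.7% to 48.4% were called under the drugs, 6.46% to 30.9% at the high doses, 0.569% to 25.2% at the medium doses and 0.419% to 5.23% at the low doses. All these comparisons share the same 3 vehicle libraries.

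**Figure D1:**
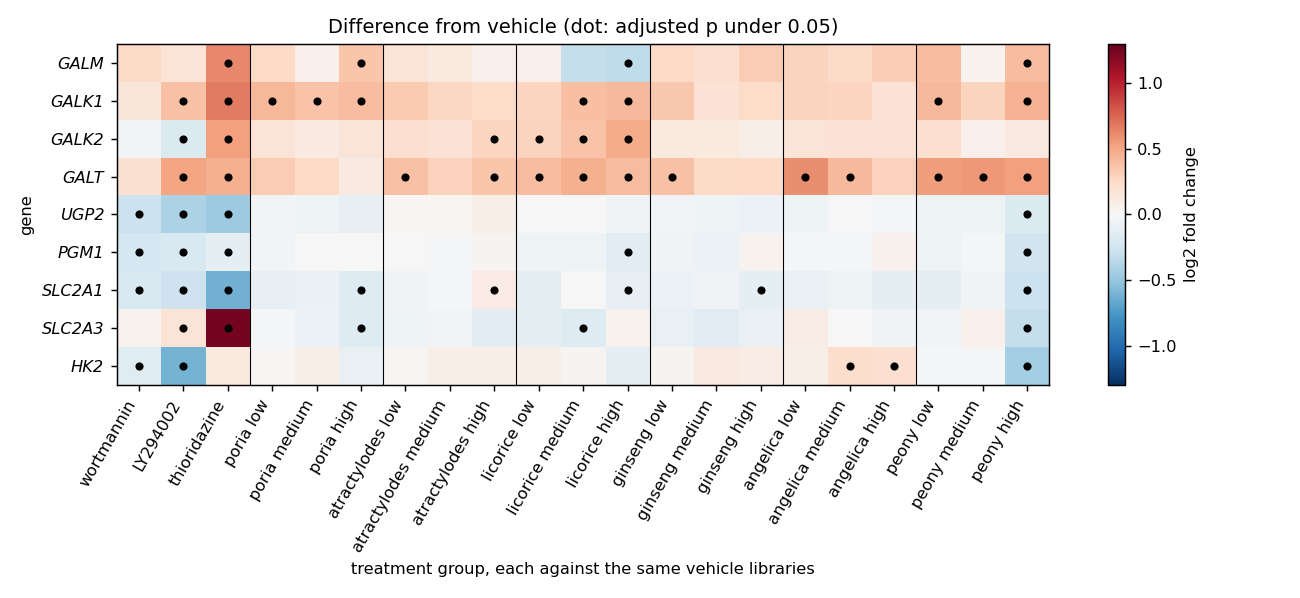
Log2 difference from vehicle of the 9 genes (vertical) in 21 treated groups (horizontal), as colour, with a dot where edgeR's test called the gene. Thioridazine shows the widest differences, from -0.63 for SLC2A1 to 1.24 for SLC2A3. High peony has the most calls among extracts, 8 of 9, a lead that rests on its replicate 1.

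Thioridazine moved 8 of the 9 genes, 5 up and 3 down, where 48.4% of all genes were called. SLC2A3, which encodes the high-affinity transporter GLUT3, stood at 34.1, 32.4 and 31.3 CPM in the vehicle libraries and at 70.8, 80.9 and 79.9 CPM under thioridazine. Every treated library was above every vehicle library, and above all other libraries of the series, a 2.37-fold rise (1.24 ± 0.05, adjusted p = 2.02e-28). SLC2A1 went the other way, with 215, 206 and 208 CPM in vehicle and 136, 139 and 133 CPM under the drug. The groups did not overlap, and the fall was 35.3% (-0.63 ± 0.04, adjusted p = 4.24e-20). The ratio of SLC2A3 to SLC2A1 per kilobase was 0.119 ± 0.003 (SD, n = 3) in vehicle and 0.436 ± 0.033 under thioridazine, so that the minor transporter came closer to the major one.

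All 4 enzymes that act directly on galactose or its amino sugar rose under thioridazine. GALK1, which commits galactose to the pathway, was at 11.4, 12.7 and 14.6 CPM in vehicle and at 20.5, 19.6 and 21.5 CPM under the drug, a rise of 59.4% (0.67 ± 0.09, adjusted p = 7.66e-09). GALM, the mutarotase, was at 3.98, 3.68 and 4.05 CPM against 6.34, 5.51 and 6.23 CPM (0.63 ± 0.12, adjusted p = 6.67e-06). In both genes the lowest treated library was above the highest vehicle library. GALK2 rose by 44.4% (0.53 ± 0.07, adjusted p = 4.21e-09) and GALT by 37.5% (0.46 ± 0.09, adjusted p = 4.58e-05). The steps after glucose 1-phosphate did not follow. UGP2 was at 133, 138 and 135 CPM in vehicle and at 99.9, 98.9 and 94.2 CPM under thioridazine, with no overlap, a fall of 27.8% (-0.47 ± 0.04, adjusted p = 7.94e-14). PGM1 fell by 7.59% (-0.11 ± 0.04, adjusted p = 0.0133), a call that ended without vehicle replicate 1 (-0.06, adjusted p = 0.251) or thioridazine replicate 2 (-0.10, adjusted p = 0.0533). HK2 missed the threshold, at 61.4, 56.3 and 61.6 CPM against 54.9, 53.0 and 56.1 CPM (0.13, 95% interval 0.01 to 0.25, adjusted p = 0.0673).

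**Figure D2:**
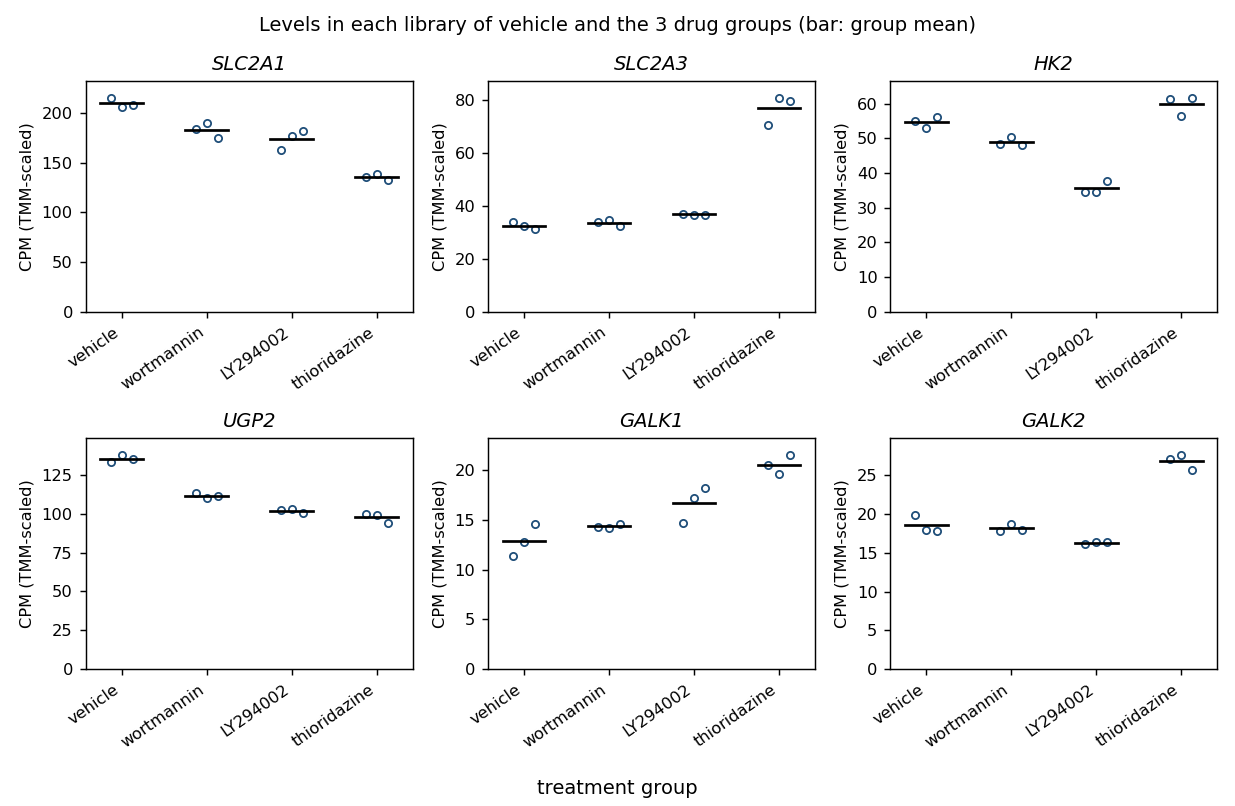
CPM of SLC2A1, SLC2A3, HK2, UGP2, GALK1 and GALK2 (vertical, from 0) in each library of vehicle and the 3 drugs (horizontal), with bars at the group means. SLC2A3 under thioridazine lies between 70.8 and 80.9 CPM and the other groups lie at or below 37.1 CPM, while HK2 is lowest under LY294002.

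LY294002 also moved 8 of 9 genes, 3 up and 5 down, against 39.3% of all genes. HK2, a known target of PI3-kinase and AKT signalling, was at 34.5, 34.5 and 37.6 CPM, below all 3 vehicle libraries at 54.9, 53.0 and 56.1 CPM. This fall of 34.9% (-0.62 ± 0.06, adjusted p = 7.77e-12) was the largest of any member under this inhibitor. UGP2 fell to 102, 103 and 100 CPM (-0.41 ± 0.04, adjusted p = 2.85e-11), SLC2A1 to 163, 177 and 182 CPM (-0.27 ± 0.04, adjusted p = 8.89e-08) and PGM1 to 76.0, 85.1 and 82.0 CPM (-0.20 ± 0.04, adjusted p = 4.76e-05), each below every vehicle library. GALT and GALK1, the consecutive enzymes of galactose conversion, rose by 42.5% (0.51 ± 0.09, adjusted p = 1.46e-05) and 29.9% (0.38 ± 0.09, adjusted p = 0.000809). SLC2A3 rose by 13.2% (0.18 ± 0.05, adjusted p = 0.00405). GALK2 was lower by 0.19 (adjusted p = 0.0386), but that call ended without vehicle replicate 1 (-0.12, adjusted p = 0.265), vehicle replicate 2 (-0.20, adjusted p = 0.0507), or LY294002 replicate 1 (adjusted p = 0.108), 2 (0.0936) or 3 (0.0896). GALM did not pass (0.18, 95% interval -0.07 to 0.42).

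Wortmannin, the other PI3-kinase inhibitor, lowered 4 members and raised 0, against 31.7% of all genes called and 16.4% called lower. UGP2 was at 113, 110 and 112 CPM (-0.28 ± 0.04, adjusted p = 6.66e-07), PGM1 at 78.4, 79.5 and 79.9 CPM (-0.23 ± 0.04, adjusted p = 5.05e-06) and SLC2A1 at 184, 190 and 175 CPM (-0.19 ± 0.04, adjusted p = 6.38e-05). For these 3 genes no wortmannin library reached the lowest vehicle library. HK2 was lower by 10.4% (-0.16 ± 0.06, adjusted p = 0.0375), a call lost without vehicle replicate 1 (adjusted p = 0.103) or 3 (0.149), or without wortmannin replicate 1 (0.113), 2 (0.0558) or 3 (0.132). The enzymes specific to galactose did not pass: GALK1 differed by 0.16 (95% interval -0.03 to 0.34), GALT by 0.20 (0.00 to 0.39) and GALM by 0.25 (0.01 to 0.49). GALK2, which acts mainly on N-acetylgalactosamine, did not pass either, at -0.03 (-0.18 to 0.11).

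The drugs were then set against each other at their common dose, 27 tests of which 18 were called. Wortmannin and LY294002 differed in 3 members, where 16.4% of all genes were called. HK2 was 37.6% higher under wortmannin (0.46 ± 0.06, adjusted p = 1.8e-07), with 48.0 CPM as its lowest wortmannin library and 37.6 CPM as its highest LY294002 library. GALT was lower under wortmannin (-0.32 ± 0.09, adjusted p = 0.0143), but not without wortmannin replicate 2 (-0.27, adjusted p = 0.0905) or LY294002 replicate 3 (-0.25, adjusted p = 0.112). UGP2 was 9.67% higher (adjusted p = 0.0261), a call that ended with the removal of any 1 of the 6 libraries (adjusted p from 0.0506 to 0.101). The other 6 members did not pass, PGM1 for example at -0.03 (95% interval -0.11 to 0.05), which does not show that the inhibitors act alike on them.

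Thioridazine differed from wortmannin in 9 of 9 members (38.7% of all genes called) and from LY294002 in 6 of 9 (40.0%). SLC2A3 was 2.29-fold and 2.09-fold higher under thioridazine than under wortmannin (1.19 ± 0.05) and LY294002 (1.06 ± 0.05). GALK2 was higher by 0.56 ± 0.07 and 0.72 ± 0.07, and HK2 by 0.29 ± 0.06 and 0.75 ± 0.06, in the same order. SLC2A1 was lower by -0.43 ± 0.04 and -0.36 ± 0.04. These 8 differences had adjusted p values of 8.38e-05 or less and each was called with any single library left out. Against wortmannin the GALM call ended without wortmannin replicate 1 (0.28, adjusted p = 0.0732) and the GALT call without wortmannin replicate 2 (0.22, adjusted p = 0.0989) or thioridazine replicate 3 (0.26, adjusted p = 0.0509). Against LY294002 the GALK1 call ended without LY294002 replicate 1 (0.22, adjusted p = 0.0762). GALT did not separate thioridazine from LY294002 (-0.05, 95% interval -0.24 to 0.13).

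For GALT and GALK1 the vehicle mean was the lowest of the 22 group means. For GALT, 53 of the 57 treated libraries were above all 3 vehicle libraries (9.48, 9.35 and 11.0 CPM), and for GALK1 51 of 57 were. The share of all genes with such a pattern was not counted, so it is not shown to be particular to GALT and GALK1. GALT was called higher in 13 of the 21 treated groups and lower in 0, with log2 differences from 0.12 (high poria) to 0.60 (low angelica). GALK1 was called higher in 9 and lower in 0, with differences from 0.16 (wortmannin) to 0.67 (thioridazine). Of these calls 8 for GALT and 5 for GALK1 held with any single library left out, and without vehicle replicate 1 alone 4 and 3 of them ended. GALT, GALK1 and UGP2 were called in 0 of 6 comparisons of a high with a low dose, and the outer limits of their 95% intervals were -0.52 and 0.22 for GALT, -0.33 and 0.32 for GALK1, and -0.22 and 0.15 for UGP2. The vehicle libraries form a set of their own, and the solvent of the treated libraries is not given. These differences from vehicle therefore cannot be told apart from a difference between sets or in solvent.

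**Figure D3:**
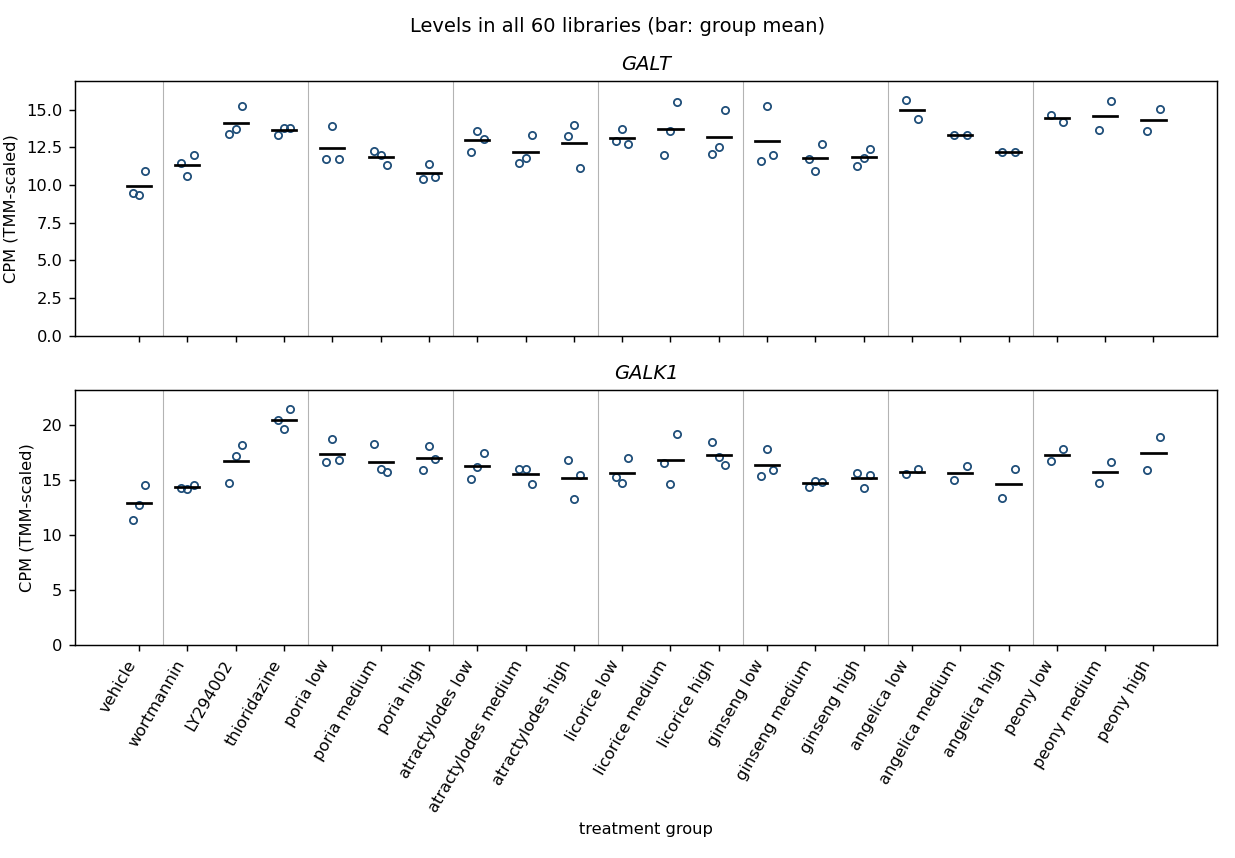
CPM of GALT and GALK1 (vertical, from 0) in every library of the 22 groups (horizontal), with bars at the group means. The vehicle mean is the lowest in both panels, 9.93 CPM for GALT and 12.9 CPM for GALK1, and no extract's high and low dose differ by the test in either gene.

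With all libraries kept, high peony changed the most members among the extracts, 8 of 9 against 20.7% of all genes, with 3 higher and 5 lower. High licorice followed with 6 of 9, and the lead over it rests on the UGP2 and GALM calls, which ended without high peony replicate 1. The share of all genes was 7.42% without replicate 1 and 30.8% without replicate 2. HK2 was at 38.9 and 41.7 CPM there, below all vehicle libraries (53.0 to 56.1 CPM) and below every other extract library, a fall of 26.1% (-0.44 ± 0.07, adjusted p = 5.16e-06). SLC2A3 was at 26.2 and 26.4 CPM, against 31.3 to 34.1 CPM in vehicle (-0.31 ± 0.06, adjusted p = 0.000113). SLC2A1 was at 165 and 182 CPM (-0.27 ± 0.04, adjusted p = 4.82e-06) and PGM1 at 75.6 and 79.4 CPM (-0.26 ± 0.04, adjusted p = 1.97e-05). SLC2A1, SLC2A3 and HK2 thus fell in both libraries, while GALT rose by 45.0% (0.54 ± 0.10, adjusted p = 0.000161). Without replicate 1, HK2 (-0.39, adjusted p = 0.00226), SLC2A3 (-0.31, adjusted p = 0.0057), SLC2A1 (-0.20, adjusted p = 0.00968), PGM1 (-0.22, adjusted p = 0.00708) and GALT (0.60, adjusted p = 0.00116) were still called. UGP2 went from -0.18 to -0.15 and GALM from 0.40 to 0.26, and neither was called (adjusted p = 0.136 and 0.386). The GALM call also ended without vehicle replicate 2 (adjusted p = 0.0852). GALK1 was higher by 0.45 ± 0.10, and by 0.56 without replicate 1 of high peony. Its call ended without replicate 2 of high peony (0.29).

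The fall of HK2 was also seen inside the peony set. HK2 was at 53.4 and 54.2 CPM at the low dose, 51.0 and 56.4 CPM at the medium dose and 38.9 and 41.7 CPM at the high dose. High against low it was 25.0% lower (-0.42 ± 0.08, adjusted p = 0.000142), where 5.90% of all genes were called, and it remained so without replicate 1 (-0.37, adjusted p = 0.0158). Only the high dose lay apart, since the medium and low libraries overlapped. SLC2A3 (-0.28 ± 0.07), PGM1 (-0.19 ± 0.05) and SLC2A1 (-0.15 ± 0.05) were also called lower, making 4 of 9 members, but these calls depended on single libraries. Without high replicate 1 their adjusted p values were 0.0534, 0.209 and 0.644, without low replicate 2 they were 0.129, 0.0724 and 0.229, and without low replicate 1 PGM1 (0.0971) and SLC2A1 (0.137) were lost. Against high angelica, in the same set, high peony again had less HK2 (angelica higher by 56.4%, 0.65 ± 0.08, adjusted p = 7.08e-09) and less PGM1 (0.31 ± 0.05, adjusted p = 7.82e-06), where 4.34% of all genes were called. The SLC2A3 (0.27) and SLC2A1 (0.16) differences brought the count to 4 of 9. They ended without high peony replicate 1 (adjusted p = 0.0759 and 0.61) or high angelica replicate 1 (0.162 and 0.279), and the second also without high angelica replicate 2 (0.0696). Without high peony replicate 1, 1.68% of all genes were called in this comparison and 2.20% in that of the doses.

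**Figure D4:**
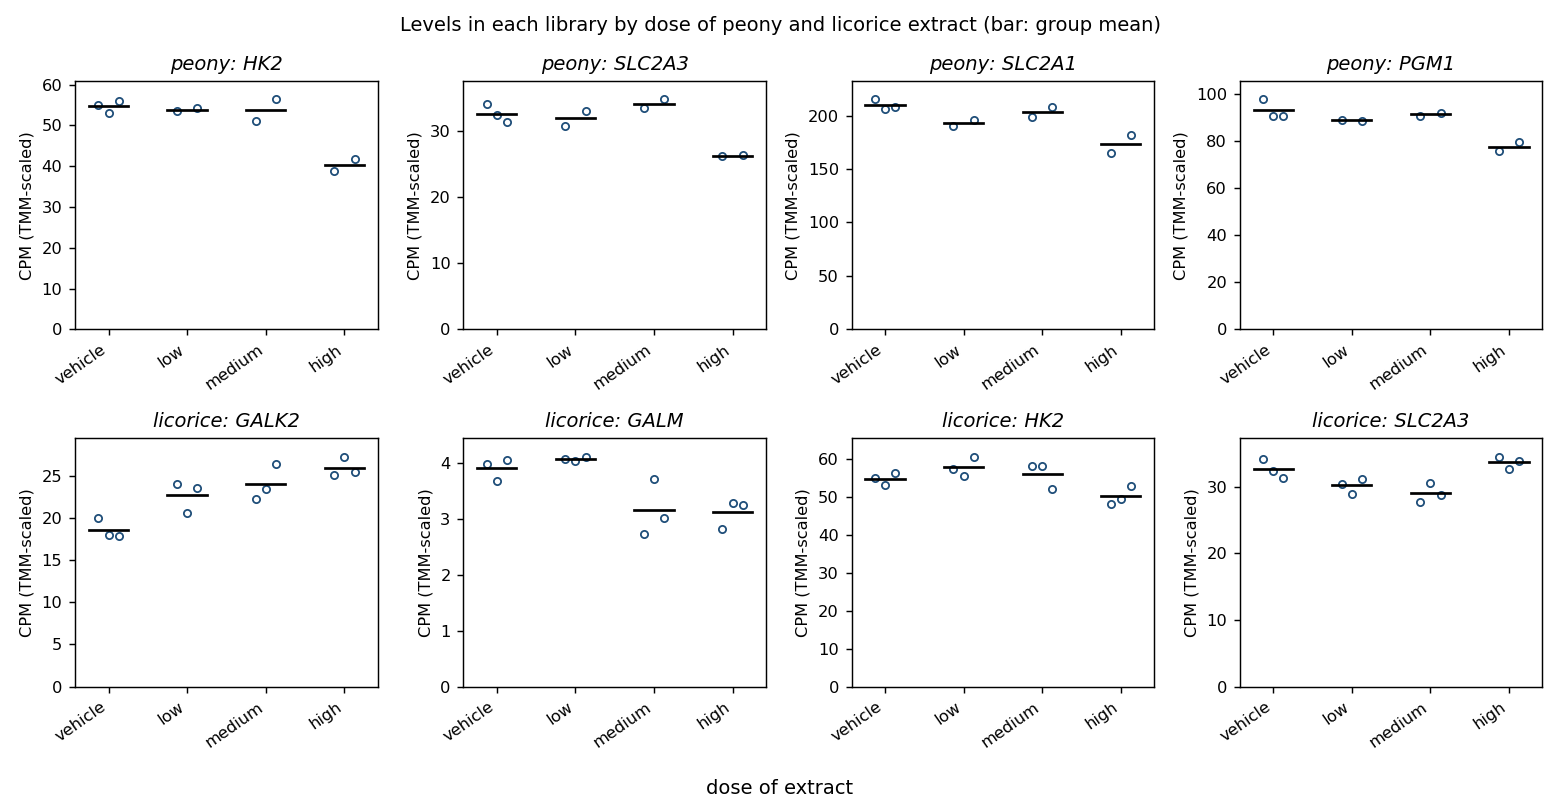
CPM of 4 members in peony (HK2, SLC2A3, SLC2A1, PGM1) and 4 in licorice (GALK2, GALM, HK2, SLC2A3) by library (points) in vehicle and at the low, medium and high dose (horizontal), with bars at the means. HK2 under peony drops at the high dose alone, and GALK2 under licorice is above vehicle at all 3 doses.

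High licorice changed 6 of 9 members, 3 up and 3 down, against 30.9% of all genes. GALK2 was at 25.1, 27.2 and 25.4 CPM, above all vehicle libraries at 19.9, 17.9 and 17.8 CPM, a rise of 39.5% (0.48 ± 0.07, adjusted p = 2e-07). It was also called higher at the medium dose (0.37 ± 0.07, adjusted p = 6.71e-05), and with GALK1, GALT and a lower SLC2A3 made 4 of 9 called there (25.2% of all genes, and 12.6% without medium licorice replicate 3). That SLC2A3 call (-0.17) was lost without vehicle replicate 1 (adjusted p = 0.101) or medium licorice replicate 1 (0.084) or 3 (0.0508). GALK1 (0.43 ± 0.09) and GALT (0.42 ± 0.09) rose at the high dose. These 3 calls held with any single library left out. GALM went the other way from the kinases, at 2.82, 3.29 and 3.24 CPM under high licorice against 3.68 to 4.05 CPM in vehicle (-0.33 ± 0.13, adjusted p = 0.0443). Its call ended with the removal of any 1 of the 6 libraries (adjusted p from 0.05 to 0.189). PGM1 (-0.14, adjusted p = 0.00336) was lost without vehicle replicate 1 (adjusted p = 0.0758). SLC2A1 (-0.10, adjusted p = 0.0367) was lost without any vehicle library (adjusted p from 0.0589 to 0.193) or without high licorice replicate 2 (0.119) or 3 (0.154).

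Ginseng shares its set with licorice and gives a comparison free of the vehicle libraries. High licorice differed from high ginseng in 5 of 9 members, where 34.2% of all genes were called. GALM was at 2.82, 3.29 and 3.24 CPM under licorice and at 4.85, 5.03 and 4.81 CPM under ginseng, 36.4% lower (-0.65 ± 0.12, adjusted p = 2.71e-05). GALK2 was 32.2% higher (0.40 ± 0.07, adjusted p = 5.49e-06), with ginseng at 20.5, 19.0 and 19.2 CPM. Neither gene overlapped between both extracts. HK2 (-0.22 ± 0.06, adjusted p = 0.00376) and PGM1 (-0.18 ± 0.04, adjusted p = 0.00016) were lower under licorice. SLC2A3 was 10.5% higher (adjusted p = 0.0266), and not without replicate 1 or 3 of either extract (adjusted p from 0.0571 to 0.0913). High against low licorice, 4 members were called (18.2% of all genes): GALM by -0.39, HK2 by -0.20, GALK2 by 0.19 and SLC2A3 by 0.16. Each of these 4 ended without at least 1 library. HK2 was lost without high replicate 1 (adjusted p = 0.089) or low replicate 3 (0.0867). GALM was lost without high replicate 1 (0.142) or any low library (0.0562 to 0.0605). For GALK2 the libraries were high replicates 2 (0.186) and 3 (0.0718) and low replicates 2 (0.292) and 3 (0.0511), and for SLC2A3 high replicates 1 (0.0778) and 3 (0.0668) and low replicate 2 (0.123).

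Poria and atractylodes, which share a set, moved SLC2A1 in opposite directions relative to vehicle. SLC2A1 was at 189, 186 and 186 CPM under high poria and at 227, 228 and 224 CPM under high atractylodes, with vehicle between them at 215, 206 and 208 CPM. The direct comparison put poria 17.4% lower (-0.28 ± 0.04, adjusted p = 2.5e-07), where 16.6% of all genes were called, and this held with any single library left out. Against vehicle the fall under poria was -0.17 ± 0.04 (adjusted p = 0.0023). The atractylodes difference was 0.11 ± 0.04 (adjusted p = 0.0443), lost without vehicle replicate 2 (0.12) or 3 (0.121) or without high atractylodes replicate 1 (0.131) or 2 (0.0787). Within atractylodes SLC2A1 was the 1 member called between doses, 11.3% higher at the high than at the low dose (adjusted p = 0.00897, against 4.10% of all genes), and not without low replicate 2 (0.0798). UGP2 (-0.19) and HK2 (-0.18) were the other members called lower in poria than in atractylodes, 3 of 9 in all. UGP2 was lost without high atractylodes replicate 1 (-0.12, adjusted p = 0.071), and HK2 without any poria library or without atractylodes replicate 2 or 3 (adjusted p from 0.0565 to 0.0982).

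The remaining calls against vehicle at the high dose were few. High poria changed 4 of 9 members (11.6% of all genes), SLC2A1 and GALK1 (0.40 ± 0.09, adjusted p = 0.00197) among them. Its GALM (0.36, adjusted p = 0.0343) and SLC2A3 (-0.16, adjusted p = 0.0292) calls were lost without vehicle replicate 1 (0.0762 and 0.181), vehicle replicate 2 (0.128 and 0.06) or poria replicate 2 (0.252 and 0.0973). GALM was further lost without vehicle replicate 3 (0.0594) or poria replicate 3 (0.0519), and SLC2A3 without poria replicate 1 (0.0976). High atractylodes changed 3 (13.9% of all genes, and 5.05% without its replicate 1, 8.15% without vehicle replicate 1 and 7.95% without vehicle replicate 3), GALT by 0.37 ± 0.10 (adjusted p = 0.0064) and GALK2 by 0.28 ± 0.07 (adjusted p = 0.00479) beside SLC2A1, and GALK2 was lost without high atractylodes replicate 1 (0.19, adjusted p = 0.133). High ginseng changed SLC2A1 alone (-0.13, adjusted p = 0.035, 7.25% of all genes), lost without any vehicle library (0.0579 to 0.172) or ginseng replicate 2 (0.192) or 3 (0.152). High angelica changed HK2 alone, at 59.5 and 66.8 CPM against 53.0 to 56.1 CPM in vehicle (0.21 ± 0.07, adjusted p = 0.0449, 6.46% of all genes). That call was lost without any vehicle library (0.0597 to 0.139) or angelica replicate 2 (0.64).

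At the medium and low doses the calls were mostly of GALT and GALK1. Of the 8 at the low dose 5 were GALT, 2 were GALK1 and 1 was GALK2, and all were higher than vehicle. Of these 8 calls 2 held with any single library left out, those of GALT under low angelica and low peony. Without vehicle replicate 1 the calls of GALK1 under low poria and low peony and of GALT under low atractylodes, licorice and ginseng ended (adjusted p from 0.0697 to 0.234), and each also ended without at least 1 library of its own group. GALK2 under low licorice ended without vehicle replicate 2 or 3 or low licorice replicate 1 or 3 (adjusted p from 0.0619 to 0.085). Of the 8 calls at the medium dose 3 held, all under licorice. Those of GALK1 under poria and of GALT and HK2 under angelica ended without vehicle replicate 1 (adjusted p = 0.236, 0.0848 and 0.123), and that of GALT under peony without its replicate 2 (0.106). Of all genes, the low doses called 0.419% (poria), 0.804% (atractylodes), 3.29% (licorice), 0.592% (ginseng), 1.75% (angelica) and 5.23% (peony). The medium doses called 1.47% (poria), 1.06% (atractylodes), 25.2% (licorice), 0.569% (ginseng), 2.91% (angelica) and 2.55% (peony). Medium ginseng and medium atractylodes gave 0 called members by edgeR and 0 by DESeq2, with 3 each at an unadjusted p under 0.05. High against low dose, poria, ginseng and angelica gave 0 of 9 by edgeR and 0 by DESeq2, with 2, 1 and 2 at an unadjusted p under 0.05 and 5.51%, 0.653% and 0.943% of all genes called. Low angelica had the highest GALT of all groups, 15.7 and 14.4 CPM (0.60 ± 0.10, adjusted p = 0.000398), a call that held with any single library left out.

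Over the whole design SLC2A3 varied most. Its highest group mean, 77.2 CPM under thioridazine, was 2.94 times its lowest, 26.3 CPM under high peony, a larger ratio than that of 97.6% of the 11205 genes that averaged 5 CPM or more. GALM, whose own mean of 4.48 CPM is below that limit, followed at 1.93 (89.6% of those genes varied less) and HK2 at 1.80 (85.8%). PGM1 was the steadiest at 1.25, where 21.6% of genes varied less, and the median gene had a ratio of 1.37. Over the 18 extract groups alone GALM (1.66, from high licorice to high peony) and HK2 (1.59, from high peony to medium angelica) ranged furthest. Without high peony replicate 1 the ratios were 2.93 for SLC2A3 over all groups, and 1.65 for GALM (its highest then low peony) and 1.53 for HK2 over the extract groups.

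Pairs of members tracked each other to different degrees, described here over group means that share libraries, depth and one vehicle. Over the 22 groups UGP2 and SLC2A1 had a Pearson correlation of 0.89 and PGM1 and HK2 one of 0.76, while SLC2A1 and SLC2A3, the 2 transporters, had -0.76. Over the 18 extract groups the first 2 pairs had 0.85 and 0.82, SLC2A1 and SLC2A3 had 0.25, and GALK2 and GALM had -0.73. GALT and GALK1, adjacent in the pathway and both lowest in vehicle, had 0.21 over the extract groups. Among genes of at least 5 CPM, those with the pattern most like HK2 over the extract groups were AK4 (0.94), DDIT4 (0.94) and VLDLR (0.91), and VLDLR (0.92), FGF11 (0.90) and NDRG1 (0.90) were most like PGM1. Over all 22 groups TPI1, GLIPR1 and PFKP (each 0.94) were most like SLC2A1, ALDH1L2, ACSL3 and VPS41 (each 0.97) most like SLC2A3, and KITLG, SHCBP1 and SLIT2 (each 0.97) most like UGP2. TPI1 and PFKP encode glycolytic enzymes. Without the drug and vehicle groups these lists changed. Over the 18 extract groups PMEPA1, YWHAB (each 0.89) and KDELR2 (0.88) were most like SLC2A1. ZFP62 (0.88), TFAP4 (0.84) and PLBD2 (0.83) were then most like SLC2A3, and DDX18, PLOD2 and PTTG1IP (each 0.91) most like UGP2.

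Of 16 further genes of galactose and UDP-sugar metabolism, wortmannin raised 0 and lowered 7, LY294002 1 and 8, thioridazine 2 and 7, high peony 1 and 7 (1 and 2 without its replicate 1), and high licorice 6 and 2. The medians were -0.13, -0.10, -0.05, -0.12 and 0.01, beside medians of all genes between 0.01 and 0.02. The share of all genes called was 31.7%, 39.3%, 48.4%, 20.7% and 30.9%, in the same order. AKR1B1, aldose reductase, which can reduce galactose to galactitol, rose under high licorice from 207 to 487 CPM (1.23 ± 0.06, adjusted p = 1.42e-24).

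Of 14 other hexose transporters 10 were tested. Thioridazine raised 6 and lowered 0, LY294002 raised 4 and lowered 0, and wortmannin raised 3 and lowered 1, where 48.4%, 39.3% and 31.7% of all genes were called. SLC2A12 rose under thioridazine from 3.41 to 8.26 CPM (1.28 ± 0.12), and SLC2A10 from 11.3 to 24.5 CPM (1.12 ± 0.08). Under wortmannin the same genes rose by 1.15 and 0.54, while SLC2A3 itself did not pass (0.05, 95% interval -0.05 to 0.15). High licorice lowered SLC2A12 (-1.19 ± 0.15). High peony raised 1 of the 10 and lowered 0, where 20.7% of all genes were called. The gene raised was SLC2A10 (0.32, and 0.39 without high peony replicate 1), unlike SLC2A1 and SLC2A3, which fell.

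HK1, the constitutive hexokinase, was at 379 CPM in vehicle and fell under wortmannin (-0.36 ± 0.03), LY294002 (-0.41 ± 0.03) and high peony (-0.21 ± 0.03, and -0.19 without its replicate 1). The ratio of HK2 to HK1 per kilobase was 0.150 in vehicle, 0.130 under LY294002, 0.127 under high peony (0.124 and 0.130 in its libraries) and 0.172 under wortmannin. HKDC1, a hexokinase-like gene, rose under thioridazine from 1.92 to 23.2 CPM (3.60 ± 0.12). Of 24 tested genes of hexose phosphorylation and glycolysis, thioridazine raised 4 and lowered 15, wortmannin 1 and 13, LY294002 2 and 12, high peony 1 and 18 (1 and 16 without its replicate 1), and high atractylodes 6 and 0. These comparisons called 48.4%, 31.7%, 39.3%, 20.7% and 13.9% of all genes, in the same order. LDHA fell by -1.04 ± 0.04 under thioridazine.

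In the peony set the glycolytic genes moved with HK2. High against low, 0 of 24 were higher and 15 lower (median -0.22, all genes 0.00), with ENO2 at -0.75 ± 0.06, PGK1 at -0.44 ± 0.05 and PFKFB4 at -0.80 ± 0.10. High angelica had 18 of 24 higher than high peony and 0 lower, where 4.34% of all genes were called, against 5.90% between the doses. Without high peony replicate 1 these counts were 11 lower between the doses and 14 higher in angelica, and ENO2 was at -0.69, PGK1 at -0.43 and PFKFB4 at -0.86. Of 12 targets of hypoxia-inducible factors outside the members, 1 was higher and 8 were lower at the high than at the low peony dose, among them BNIP3 (-1.10 ± 0.07), P4HA1 (-0.61 ± 0.04) and CA9 (-0.77 ± 0.09), and 1 and 7 without that library, with these 3 genes at -1.08, -0.58 and -0.78. The licorice doses gave 1 and 8 as well, where 18.2% of all genes were called. The target that was higher at the high than at the low peony dose was VEGFA (0.23, and 0.28 without high replicate 1). SLC2A1, SLC2A3 and HK2 belong to the same group of known targets. A part of these factors in the member differences was not tested.

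TXNIP, which binds and lowers glucose transporters and is induced by hexose phosphates through MondoA, moved far more than any member. It was at 10.7 ± 0.33 CPM in vehicle, 206 ± 5.3 under high poria (4.27 ± 0.08), 150 ± 3.1 under high ginseng (3.81 ± 0.08), 5.46 ± 0.08 under high atractylodes (-0.97 ± 0.11) and 5.74 ± 0.46 under high licorice (-0.90 ± 0.11). Its relative ARRDC4 rose to 32.9 and 23.2 CPM under high poria and ginseng from 6.67 CPM. In the same libraries the largest difference of any member from vehicle was 0.40 (GALK1) under high poria and 0.33 (GALM, not called) under high ginseng. TXNIP also rose under high peony (1.45, and 1.41 without its replicate 1), where GALT was at 0.54 and HK2 at -0.44 from vehicle. High angelica had still more TXNIP than high peony (1.02, and 1.06 without that library). A part of TXNIP in the member differences was not tested. High poria, ginseng, angelica and peony called 11.6%, 7.25%, 6.46% and 20.7% of all genes, and thioridazine 48.4%. Of 12 glucose-regulated chaperones, high poria lowered 10, and high ginseng, angelica and peony 9 each (peony 8 without its replicate 1), and these 4 raised 0, while thioridazine raised 7 and lowered 0.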

How the data were processed

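RNA sequencing of 60 SW1783 libraries in 22 groups was analysed. The deposited values are expected counts per gene, not normalised between samples. The submitters' processing notes name RSEM 1.3.3, STAR 2.7.3a, Trim Galore 0.6.5, FastQC 0.11.9 and the build GRCh38, and a strand setting was not given in the sources used here. The table has 279 columns, of which 219 were not used. Since 9.5% of the values were not whole (tolerance 1e-06), expected counts were rounded. With edgeR 4.0.16, low genes were removed by filterByExpr (count 10, total 15), libraries scaled by TMM, and a single quasi-likelihood model with robust estimation fitted over the 22 groups, with Benjamini-Hochberg adjustment over 17919 genes in each of 33 two-sided contrasts and a threshold of 0.05. The biological coefficient of variation was 0.051. CPM values use the TMM library sizes, and values per kilobase use GENCODE 29 exon lengths. Groups come from the sample labels.

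The members and the 8 further lists, with 104 genes, were chosen with earlier results of these data known. All 9 members are named, and 1 other gene of the design is not reported here. TXNIP, ARRDC4, HK1 and SLC2A14 are named where they bear on a member. From other lists at most 3 called genes with the smallest p per comparison are named. The 3 genes most correlated over group means are named for HK2, PGM1, SLC2A1, SLC2A3 and UGP2, and those of the other members are not reported here. Alternatives were RLE size factors, library totals, no filter, the replicate number as a block, DESeq2 1.42.0, a fit of the 2 groups alone, leaving out each library and, chosen after seeing the data, leaving out 3 libraries together. The pipeline was tested on simulated data.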

Additional observations from a re-analysis of the deposited data

How the results depend on the processing

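Of 98 called differences of a member, 50 were called under every alternative and 0 changed sign. Calls against vehicle numbered 59, and 59 with RLE size factors, 62 with library totals, 50 without a filter, 61 with DESeq2, 71 with the 2 groups alone and 64 with 3 libraries left out (replicate 1 of high peony and high atractylodes and replicate 3 of medium licorice, chosen after seeing the data). Leaving out 1 library gave 40 to 60 there (40 without vehicle replicate 1), 6 to 9 of the high against low dose (9 in the full fit), 15 to 18 between drugs (18) and 10 to 13 between extracts (12). Without a filter on low counts 3 calls were left between doses, and the cause was not tested; over all genes that setting moved the count by over 1.5 times in 9 of 33 comparisons, the 2 groups alone in 22 and the 3 libraries left out in 17. Leaving out 1 library moved that count by over 1.5 times in at least 1 fit of 24 of the 33 comparisons, and 15 moved so without vehicle replicate 1. With library totals the ratio of highest to lowest group was 1.40 for UGP2 and 1.60 for SLC2A1, and their vehicle levels were 131 and 204 CPM; the median of all genes under high peony then moved from 0.02 to 0.13. With the replicate number as a block, 63 calls against vehicle, 9 between doses, 18 between drugs and 12 between extracts were made, and 0 of the 98 calls were lost. Same-numbered libraries of a set had correlated deviations of 0.018 on average (from -0.105 to 0.225), and differently numbered ones -0.0102. The labels do not say what a replicate number marks, and so small an average cannot decide whether the numbers pair the samples. HK2 under thioridazine was called with library totals (0.20, adjusted p = 0.00617), the 2 groups alone (0.12, 0.0105) and the 3 libraries left out (0.14, 0.0282). It was also called without vehicle replicate 3 (0.16, 0.041) or thioridazine replicate 2 (0.18, 0.0235), and not under the other alternatives. Protein identity between members was not run. With 2 or 3 libraries a group, the median SE of a member against vehicle ranged from 0.04 (PGM1, SLC2A1, UGP2) to 0.12 (GALM, the least abundant member).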
